A study of Mus musculus with 6 samples.

Results

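The 34 antioxidant and redox defence genes described here are enzymes, regulators and oxidases of reactive oxygen metabolism. They form a list of names set by function, drawn up with earlier results of these data known, out of 21887 protein-coding genes of the mouse assembly GRCm38, and all 34 matched the gene table. For each gene, ATAC-seq peaks within 1000 bp of either end of the gene were read from the peak list of each library, and a gene with such a peak is called marked. ATAC-seq reads open chromatin as the DNA that the Tn5 transposase can enter. Islets came from mice 16 weeks old and were digested with trypsin, and there were 6 libraries, 2 in each of 3 groups. Knockout-Acsl4 islets were BetaRicKO islets, without Rictor in beta cells, that received an adenovirus carrying Acsl4. Knockout-GFP islets were BetaRicKO islets given a GFP adenovirus, and control-GFP islets were wild-type islets given the same GFP virus. All groups therefore carried an adenovirus for 48 h in culture, and 50 islets were lysed per library. The driver of the beta cell deletion, the virus dose and whether the 2 libraries per group are from different mice are not given in the sources used here. P-values thus measure only the spread between these libraries, which may be technical.

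Superoxide leaking from mitochondria or made by NADPH oxidases is turned into hydrogen peroxide by superoxide dismutases, and peroxide is removed by catalase, by peroxiredoxins, most of them fed with electrons from thioredoxin, and by glutathione peroxidases fed with electrons from glutathione. The transcription factor NRF2 (Nfe2l2) switches on many of these genes when its inhibitor KEAP1 releases it. Beta cells are known for low catalase and glutathione peroxidase levels, and Acsl4 helps to build the polyunsaturated lipids whose peroxides GPX4 reduces.

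The lists held 525 to 5874 peaks, and 5.30% to 75.5% of a list lay at a gene end. The library labelled knockout-Acsl4 1 had the fewest peaks, and those labelled knockout-Acsl4 2 and control-GFP 2 the lowest gene-end shares, 5.30% and 21.7%. Rictor itself carried no peak in any library, so the knockout cannot be checked from the lists. Acsl4 carried 6 peaks in the library labelled knockout-GFP 1 and 7 in that labelled control-GFP 1 and none in the other 4, the Acsl4 virus libraries included. The Acsl4 peaks thus lay only in libraries labelled as given the GFP virus, and the cause was not tested. The lists do not bear out the labels for added Acsl4, and groups are called by their labels here and below. Of 14 beta cell markers, Nkx6-1 and Mafa were marked, each in the libraries labelled knockout-GFP 2 and control-GFP 1, and Ins1 and Ins2 in none. None of 9 alpha, delta and PP cell markers and none of 12 endothelial, stromal and immune markers was marked in any library, and 1 of 7 acinar and ductal markers was, in a single library. The peak lists therefore do little to check the tissue.

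The promoters below belong to the 4 genes marked in the most libraries, to Gss, the gene marked in knockout-GFP only against control-GFP, and to Gpx4, whose peak lay at an internal start. They were chosen after the values were seen, since the rule for printing asked for 4 libraries and no member reached that. Each runs 5′ to 3′ on the strand of the gene, from 250 bases before to 50 after a RefSeq start (GRCm38), and capitals mark the bases inside a peak in every library that had one there. The windows are chr17:13007589-13007888 (plus strand) for Sod2, chr15:77928945-77929244 (minus) for Txn2, chr12:105032368-105032667 (plus) for Glrx5, chr11:96829919-96830218 (minus) for Nfe2l1, chr2:155592761-155593060 (minus) for Gss and chr10:80053315-80053614 (plus) for Gpx4.
Sod2: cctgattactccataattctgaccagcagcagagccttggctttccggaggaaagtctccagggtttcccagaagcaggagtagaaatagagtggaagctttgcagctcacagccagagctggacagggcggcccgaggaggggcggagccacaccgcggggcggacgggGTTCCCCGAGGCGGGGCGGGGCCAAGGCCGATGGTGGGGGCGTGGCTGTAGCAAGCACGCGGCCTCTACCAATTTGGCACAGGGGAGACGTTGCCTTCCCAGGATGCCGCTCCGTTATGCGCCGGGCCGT
Txn2: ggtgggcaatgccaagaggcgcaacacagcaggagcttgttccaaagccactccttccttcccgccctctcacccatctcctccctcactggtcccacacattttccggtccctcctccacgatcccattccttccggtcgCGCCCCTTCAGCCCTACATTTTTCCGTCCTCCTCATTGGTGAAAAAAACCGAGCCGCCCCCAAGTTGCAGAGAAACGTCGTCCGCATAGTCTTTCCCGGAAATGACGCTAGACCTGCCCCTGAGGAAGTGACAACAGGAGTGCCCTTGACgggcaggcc
Glrx5: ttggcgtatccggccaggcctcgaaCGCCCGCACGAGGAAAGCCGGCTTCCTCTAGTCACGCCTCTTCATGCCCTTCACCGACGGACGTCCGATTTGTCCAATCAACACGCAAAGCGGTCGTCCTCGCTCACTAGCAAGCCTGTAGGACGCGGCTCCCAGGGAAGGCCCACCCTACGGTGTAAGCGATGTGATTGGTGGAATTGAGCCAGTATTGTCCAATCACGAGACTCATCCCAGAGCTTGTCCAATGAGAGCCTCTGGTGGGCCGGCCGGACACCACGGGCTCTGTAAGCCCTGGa
Nfe2l1: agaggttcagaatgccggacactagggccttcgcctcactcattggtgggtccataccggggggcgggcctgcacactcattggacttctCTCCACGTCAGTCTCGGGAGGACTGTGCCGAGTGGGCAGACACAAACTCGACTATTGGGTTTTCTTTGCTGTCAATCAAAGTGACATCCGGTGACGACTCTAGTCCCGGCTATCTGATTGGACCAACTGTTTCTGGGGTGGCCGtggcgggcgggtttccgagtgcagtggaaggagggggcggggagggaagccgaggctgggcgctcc
Gss: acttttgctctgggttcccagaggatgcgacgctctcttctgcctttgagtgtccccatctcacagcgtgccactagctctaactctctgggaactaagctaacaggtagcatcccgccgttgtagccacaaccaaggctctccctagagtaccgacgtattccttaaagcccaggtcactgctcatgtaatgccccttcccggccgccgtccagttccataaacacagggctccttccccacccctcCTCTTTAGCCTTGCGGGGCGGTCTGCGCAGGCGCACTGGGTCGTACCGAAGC
Gpx4: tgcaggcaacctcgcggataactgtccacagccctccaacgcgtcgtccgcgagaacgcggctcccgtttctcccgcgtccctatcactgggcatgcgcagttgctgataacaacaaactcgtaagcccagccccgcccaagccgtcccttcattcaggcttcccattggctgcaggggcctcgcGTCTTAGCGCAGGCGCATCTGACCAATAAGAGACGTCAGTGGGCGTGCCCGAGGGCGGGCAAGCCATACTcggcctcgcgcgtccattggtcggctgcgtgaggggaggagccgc

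Of the 34 genes, 16 (47.1%) were marked in at least 1 library, against 24.5% of all protein-coding genes. The libraries labelled knockout-Acsl4 1 and 2 marked 0 and 1 members, the knockout-GFP pair marked 6 and 13, and the control-GFP pair marked 9 and 0. As shares these were 0% and 2.94%, 17.6% and 38.2%, and 26.5% and 0% of the members. Over all protein-coding genes the shares were 1.02% and 1.58% in the knockout-Acsl4 libraries, 8.20% and 17.3% in the knockout-GFP libraries, and 16.7% and 2.00% in the control-GFP libraries. The exact Clopper-Pearson 95% interval of the members' share ran from 6.76% to 34.5% for the library labelled knockout-GFP 1, from 22.2% to 56.4% for its replicate and from 12.9% to 44.4% for the library labelled control-GFP 1. In these 3 libraries the members' share was 1.59 to 2.21 times the share over all genes. By the rule of 3 counts, 0 of 34 allows a share of up to 8.82%, and the exact interval drawn in the plot of shares reaches 10.3%, so the library labelled knockout-Acsl4 1 and that labelled control-GFP 2 could not show whether members were marked less often than genes in general. In the library labelled knockout-Acsl4 2 the interval ran from 0.0744% to 15.3%, and its share relative to all genes rests on Keap1 alone. These intervals and limits cover counting error only. In whole islets, fewer cells with an open site and a site less open in each cell cannot be told apart.

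**Figure D1:**
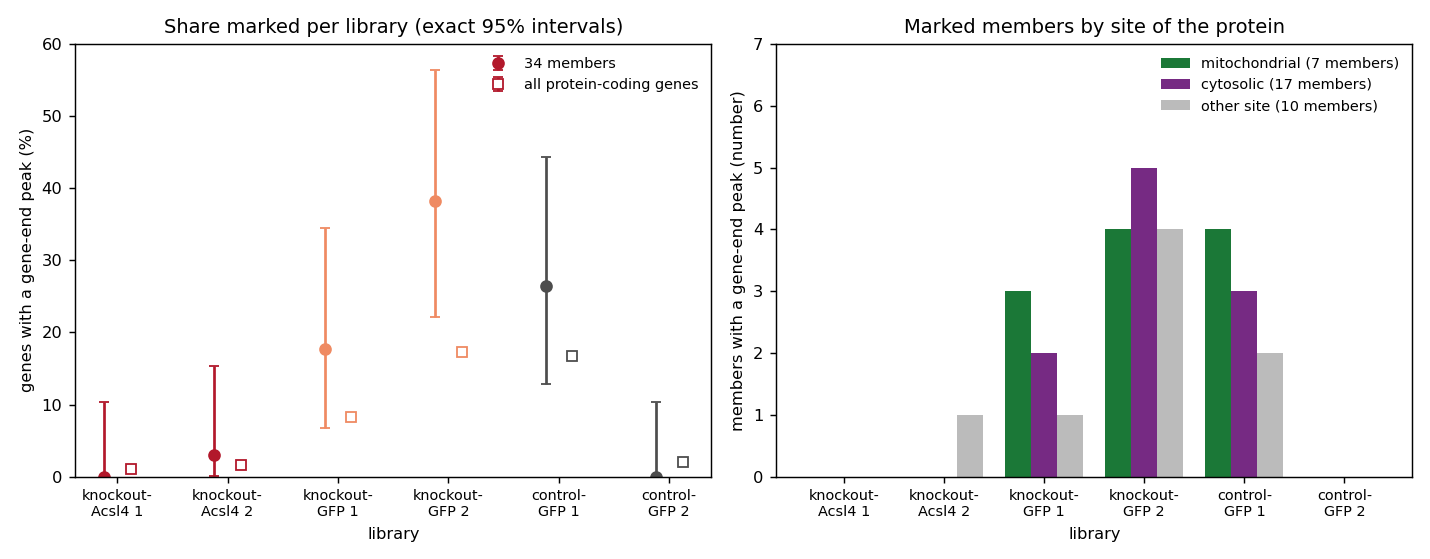
Left, percentage of the 34 members (filled circles) and of all protein-coding genes (open squares) with a gene-end peak in each library, with exact 95% intervals (those of all genes are smaller than the symbols). Right, number of marked members in each library by the site of the protein. Marked members are found in the 2 knockout-GFP libraries and control-GFP 1, with a single further one in knockout-Acsl4 2.

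Marks were concentrated in 3 libraries. Of the 16 marked members, 15 had their peaks only in the libraries labelled knockout-GFP 1, knockout-GFP 2 and control-GFP 1, and the same was so for 4425 of the 5357 marked genes overall. The exception was Keap1. Members marked in at least 3 libraries numbered 4 of 34 (11.8%), against 6.52% of all genes. None was marked in 4 or more, as 355 of 21887 genes were. Of all genes, 1.40% were marked in 4 libraries, 0.206% in 5 and 0.0137% in 6. The 4 members marked in 3 libraries were Glrx5, Sod2, Txn2 and Nfe2l1. Each was marked in precisely the libraries labelled knockout-GFP 1, knockout-GFP 2 and control-GFP 1 and in none of the others. The products of Glrx5, Sod2 and Txn2 work in mitochondria.

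**Figure D2:**
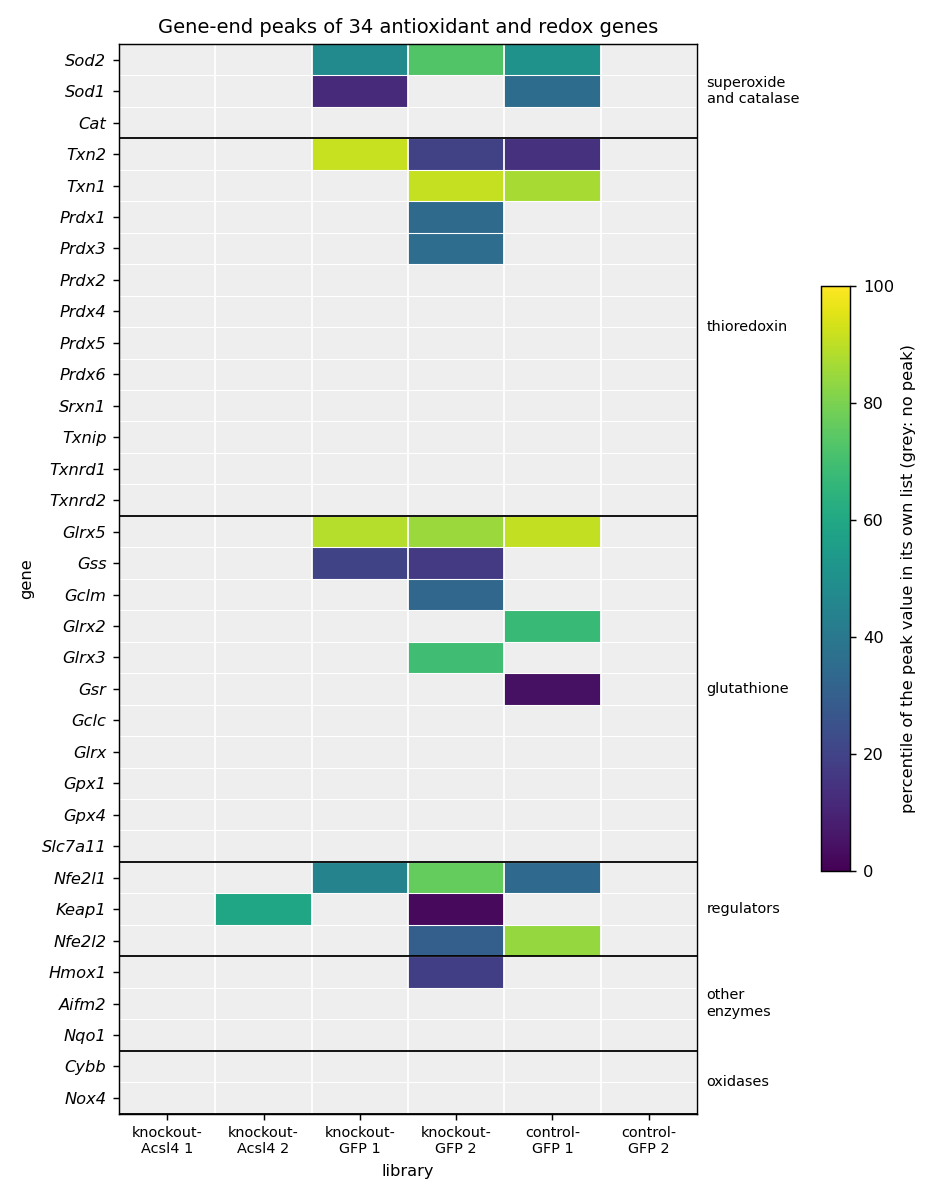
Each row is a gene, grouped by system, and each column a library; colour gives the percentile of the gene's highest gene-end peak within its own list, and grey means no peak. Only Glrx5, Sod2, Txn2 and Nfe2l1 are coloured in 3 columns, and 18 rows are grey throughout.

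Glrx5, a mitochondrial monothiol glutaredoxin needed to make iron-sulfur clusters (chromosome 12, 105032618 to 105040911), had the highest single value among the members and ranked high in all 3 libraries. The deposited value of a peak, read as −log10 of its q-value, was 9.02 in the library labelled knockout-GFP 1, 12.2 in that labelled knockout-GFP 2 and 16.5 in that labelled control-GFP 1. Because such values depend on the list, each was also ranked in its own list, which put the Glrx5 peaks at percentiles 88.8, 84.9 and 90.7 in those libraries. The 3 peaks were 276 to 331 bp wide and all covered the annotated start. They also lay within 1000 bp of the ends of the noncoding genes Snhg10 and Gm46374, which they cannot be assigned apart from.

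Sod2, the manganese superoxide dismutase of the mitochondrial matrix (chromosome 17, 13007839 to 13018119), had peak values of 4.13 in the library labelled knockout-GFP 1, 9.38 in that labelled knockout-GFP 2 and 5.95 in that labelled control-GFP 1. Their percentiles were 48.0, 72.8 and 51.5, near the middle of the lists in the first and the third and higher in the second. The 3 peaks overlapped each other by 179 to 211 bp around the start.

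Txn2, the mitochondrial thioredoxin (chromosome 15, 77915051 to 77928994), ranked very differently between libraries. Its peak value was 10.3 (percentile 91.7) in the library labelled knockout-GFP 1, 3.60 (19.7) in that labelled knockout-GFP 2 and 2.88 (14.3) in that labelled control-GFP 1. The 2 knockout-GFP libraries thus held both a high and a low rank, and the control library lay below both.

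Nfe2l1, the transcription factor NRF1 that is anchored in the ER and drives proteasome and antioxidant genes (chromosome 11, 96817414 to 96829968), had values of 3.94 (percentile 44.8) in the library labelled knockout-GFP 1, 10.1 (76.3) in that labelled knockout-GFP 2 and 4.26 (34.1) in that labelled control-GFP 1. The library labelled knockout-GFP 2 held a second, weak peak 179 to 365 bp inside the gene, with a value of 1.73. The same library had a further peak upstream of annotated internal starts of Nfe2l1, from 96824155 to 96824307, with a value of 4.77.

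Among the other superoxide and peroxide genes, Sod1, the cytosolic copper-zinc superoxide dismutase (chromosome 16), had a value of 2.20 in the library labelled knockout-GFP 1 and 4.41 in that labelled control-GFP 1. Its 2 peaks did not overlap, since the first covered the start and the second ended 100 bp upstream of it. Catalase (Cat) was marked in no library.

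In the thioredoxin system, the cytosolic thioredoxin Txn1 (chromosome 4) was marked with high values in the library labelled knockout-GFP 2, at 15.3 (percentile 91.0), and in that labelled control-GFP 1, at 13.9 (86.8). The peroxiredoxins Prdx1, cytosolic, and Prdx3, mitochondrial, were marked in the library labelled knockout-GFP 2 alone, both with a value of 4.89. The remaining 8 members of this system were unmarked in all 6 libraries: the peroxiredoxins Prdx2 (cytosolic), Prdx4 (ER), Prdx5 and Prdx6, the reductases of thioredoxin Txnrd1 and Txnrd2, the thioredoxin inhibitor Txnip and sulfiredoxin (Srxn1), which repairs overoxidised peroxiredoxins.

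In the glutathione system, Gss, the enzyme that adds glycine in the last step of glutathione synthesis (chromosome 2, 155563181 to 155592810), was marked in both knockout-GFP libraries and nowhere else. Its values were low, 2.75 (percentile 20.3) in the library labelled knockout-GFP 1 and 3.17 (17.03) in that labelled knockout-GFP 2. Gclm, the modifier subunit of the rate-limiting glutamate-cysteine ligase, had 4.74 and the cytosolic glutaredoxin Glrx3 8.79, both in the library labelled knockout-GFP 2 only. The mitochondrial glutaredoxin Glrx2 had 8.13 and glutathione reductase (Gsr) 2.09, both in the library labelled control-GFP 1 only. The catalytic ligase subunit Gclc, the cystine importer Slc7a11, the cytosolic glutaredoxin Glrx, and the peroxidases Gpx1 and Gpx4 had no gene-end peak.

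All 3 regulators were marked somewhere. Nfe2l2 (chromosome 2, 75675513 to 75704663) had values of 4.46 (percentile 30.4) in the library labelled knockout-GFP 2 and 12.6 (84.1) in that labelled control-GFP 1. Keap1 (chromosome 9, 21229730 to 21239332), the adaptor that sends NRF2 for degradation, was the only member marked in a knockout-Acsl4 library. Its value was 1.93 in the library labelled knockout-Acsl4 2, at percentile 58.7 of a list with many low values, and 2.01 in that labelled knockout-GFP 2, at percentile 2.61. The 2 Keap1 peaks overlapped by 119 bp and lay inside the gene, past the start. Of the other enzymes, heme oxygenase (Hmox1) had a value of 3.45 in the library labelled knockout-GFP 2, while the quinone reductase Nqo1 and Aifm2, also called FSP1, which regenerates reduced coenzyme Q against lipid peroxidation, were unmarked. The NADPH oxidase genes Cybb, the phagocyte subunit, and Nox4 were unmarked in every library.

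By site of the protein, 5 of 7 mitochondrial members (71.4%), 7 of 17 cytosolic members (41.2%) and 4 of 10 members of other sites (40.0%) were marked in at least 1 library. The share over all protein-coding genes was 24.5%. By the gene-end rule, mitochondrial members marked in 3 libraries numbered 3 of 7, against 0 of 17 cytosolic members and 6.52% of all genes in at least 3 libraries. The 0 of 17 depends on this rule, since Gpx4, classed here as cytosolic, had peaks at an internal annotated start in 3 libraries, as given below. In the library labelled knockout-GFP 1 the marked members were 3 mitochondrial and 2 cytosolic, in that labelled knockout-GFP 2 they were 4 and 5, and in that labelled control-GFP 1 they were 4 and 3, with 1, 4 and 2 further members of other sites. By system, 4 of 12 thioredoxin members, 6 of 11 glutathione members, 2 of 3 superoxide dismutases and catalase, 3 of 3 regulators, 1 of 3 other enzymes and 0 of 2 oxidases were marked. These classes hold 2 to 17 genes each, and no test between classes was made. The assignment to a site or system follows the main role or family of each protein, so Prdx6 counts with the other peroxiredoxins.

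The peaks of members with a known strand sat at the 5′ ends of the genes. Of the 30 member peaks, 28 belonged to genes with a known strand. All 28 were at the 5′ end and none at a 3′ end, and 20 of them covered the outermost 5′ base of the gene. The 5′ end of a gene is not always an annotated start. The Gclm peak covered the gene's end but stopped 18 bp before the annotated start, and the Glrx2 peak covered annotated starts inside the gene. Where 2 libraries marked the same member, the peaks overlapped in 16 of 17 such pairs of libraries, with Sod1 the exception. Widths ran from 113 to 615 bp with a median of 231 bp. Member peaks ranked at a median percentile of 36.7 among the gene-end peaks of their lists, and 8 of the 30 lay at or above percentile 75 of all peaks in their list. None of the 16 marked members shared its peak with another coding gene's end, whereas 1687 of 5357 marked genes (31.5%) did, and 6 members (Glrx5, Glrx2, Txn1, Prdx1, Gclm and Gsr) shared theirs with the end of a noncoding gene. The share over all genes was not counted for noncoding ends or for overlapping pairs.

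**Figure D3:**
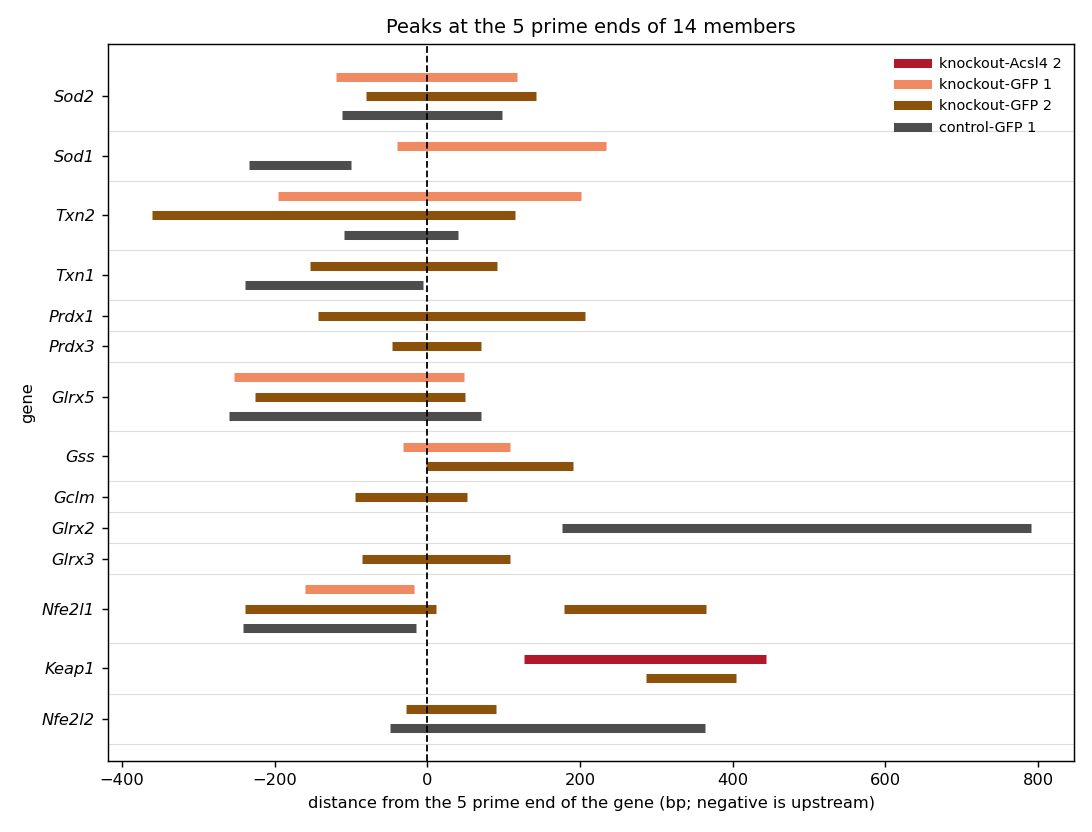
Each bar is a called peak, placed by its distance in bp from the 5′ end of the gene, for the 14 marked members with a known strand; colours give the library. Bars of different libraries overlap for every gene marked in more than 1 library except Sod1, and the Keap1 and Glrx2 bars lie downstream of the gene's 5′ end.

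Gpx4, the peroxidase that reduces lipid hydroperoxides in membranes and so opposes ferroptosis, was unmarked by the gene-end rule, and its peaks were found by looking past that rule. RefSeq gives Gpx4 (chromosome 10, 80047166 to 80056439) 4 starts, of which the outermost had no peak. At the internal start 6399 bp downstream, a peak was called in the library labelled knockout-GFP 1 from 80053404 to 80053569 (value 3.82, percentile 42.3), in that labelled knockout-GFP 2 from 80053426 to 80053608 (8.85, 70.1) and in that labelled control-GFP 1 from 80053500 to 80053653 (6.42, 55.0). These are the same 3 libraries that marked Glrx5, Sod2, Txn2 and Nfe2l1, and the peaks covered that start in each. When peaks within 1000 bp of any annotated start were counted, among the 30 members with a start in the table, Gpx4 was the only member added, and the marked members were 0 and 1 in the knockout-Acsl4 libraries, 7 and 13 in the knockout-GFP libraries and 9 and 0 in the control-GFP libraries. Over all genes with a start, this rule marked 1.13% and 1.28%, 8.88% and 18.8%, and 17.95% and 2.098% in the libraries in the same order.

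Peaks near or inside members but at no coding gene's end were few, the internal Gpx4 and Nfe2l1 peaks above included. Within 50 kb of the 34 genes there were 0 and 8 such peaks in the knockout-Acsl4 libraries, 2 and 8 in the knockout-GFP libraries and 5 and 5 in the control-GFP libraries. In the same order, the whole lists held 525 and 5874, 2206 and 4257, and 4442 and 1628 peaks. Of these, 35.8% and 5.30%, 67.2% and 75.5%, and 70.9% and 21.7% lay at a gene end. A region about 26 kb from Glrx3 was called in the library labelled knockout-GFP 2 (137410473 to 137411022 on chromosome 7, value 7.10) and in both control-GFP libraries (10.6 and 2.58). Near Gclc, 2350 to 3682 bp beyond the gene on chromosome 9, the libraries labelled knockout-GFP 2, control-GFP 1 and control-GFP 2 each had a weak peak, with values of 1.98, 2.14 and 2.99. The library labelled knockout-Acsl4 2 had 2 peaks on the same side of Txnip, 39036 and 9395 bp from it, with values of 3.715 and 2.50, that no other library had. None of its 8 such peaks overlapped one of another library in this set. Whether they exceed what its many peaks away from gene ends would give was not tested.

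Knockout-GFP against control-GFP addresses, by the labels, what loss of Rictor does to these genes. Only Gss was marked in both knockout-GFP libraries and in no control library. This is 1 of 34 members, and 1.04% of all genes had the pattern. No member had the reverse pattern, which 0.0914% of all genes had. Marked members numbered 6 and 13 in the knockout-GFP libraries and 9 and 0 in the control-GFP libraries, so the groups overlapped. The means were 9.5 ± 4.95 and 4.5 ± 6.36 (SD, n = 2 each), a difference of 5 members (two-sided exact permutation p = 0.667), and 0.3333 is the smallest p that 2 libraries against 2 can give. Set against all genes of the same list, members were marked 2.15 and 2.21 times as often as genes in general in the knockout-GFP libraries, and 1.59 and 0 times in the control-GFP libraries (difference of means 1.39, two-sided exact permutation p = 0.3333). The 0 is from the library labelled control-GFP 2, where 2.00% of all genes were marked, so this relative difference decides nothing. The difference of 5 fell to 1 with the better 50% of each list and to 1 with lists of 525 peaks. The count of 1, Gss, became 0 with the better 50% of each list or with lists cut to 525 peaks, 7 once the library labelled knockout-GFP 1 was left out and 5 once that labelled control-GFP 1 was. Without the library labelled control-GFP 2, Glrx2 and Gsr were the 2 members marked in control-GFP only.

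Knockout-Acsl4 against knockout-GFP addresses, by the labels, what added Acsl4 does in islets without Rictor. The peaks in Acsl4 itself did not follow these labels. Glrx5, Sod2, Txn2, Nfe2l1 and Gss were marked by both knockout-GFP libraries while neither knockout-Acsl4 library marked them, and no member showed the opposite. Over all genes 5.79% had the first pattern and 0.00914% the second. Marked members numbered 0 and 1 in the knockout-Acsl4 libraries and 6 and 13 in the knockout-GFP libraries, which do not overlap. The shares of all genes marked, 1.02% and 1.58% against 8.20% and 17.3%, do not overlap either. The mean numbers of marked members were 0.5 ± 0.707 and 9.5 ± 4.95 (SD, n = 2 each), a difference of -9 (two-sided exact permutation p = 0.3333, the smallest possible). Of the genes marked in both knockout-GFP libraries, 5 of 5 members and 1267 of 1447 genes in all (87.6%) had no mark in the knockout-Acsl4 libraries. The part of the low background of the knockout-Acsl4 lists in the members' count was not tested. The difference of -9 was -3 with the better 50% of each list and -1.5 with equal lists of 525 peaks. The count of 5 became 1 with the better 50% of each list, 0 with equal lists of 525 peaks and 12 without the library labelled knockout-GFP 1. Relative to all genes in the same list, members were marked 0 and 1.87 times as often in the knockout-Acsl4 libraries and 2.15 and 2.21 times in the knockout-GFP libraries (difference of means -1.25, two-sided exact permutation p = 0.3333). The 1.87 rests on Keap1 alone and the 0 on no marked member, so this relative difference decides nothing. With the better 50% of each list the relative difference turned to 0.171. It was -0.909 with a window of 500 bp and -0.865 with only the 5′ ends of genes of known strand. In both settings the groups overlapped (two-sided exact permutation p = 1).

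Knockout-Acsl4 against control-GFP gives, by the labels, the joint difference. Marked members numbered 0 and 1 in the knockout-Acsl4 libraries and 9 and 0 in the control-GFP libraries, with means of 0.5 ± 0.707 and 4.5 ± 6.36 (SD, n = 2 each; two-sided exact permutation p = 1). No member was marked by every library of 1 of these groups and by no library of the other. Over all genes, 0.00457% were marked in knockout-Acsl4 only and 1.32% in control-GFP only. All 9 marks in control-GFP islets came from the library labelled control-GFP 1, and without the library labelled control-GFP 2 all 9 counted as control-only. Relative to all genes, the values were 0 and 1.87 times in the knockout-Acsl4 libraries and 1.59 and 0 times in the control-GFP libraries, a difference of means of 0.14 (two-sided exact permutation p = 1). The 1.87 rests on Keap1 alone and each 0 on no marked member, so the difference of 0.14 decides nothing. That difference was 0.557 with a window of 500 bp, 0.665 with the 5′ gene end only and 0.466 with any annotated start. It was -0.793 without the library labelled knockout-Acsl4 2 and -0.654 without that labelled control-GFP 2. The difference in marked members was 0.5 without the library labelled control-GFP 1, and Keap1 counted as marked in knockout-Acsl4 only once the library labelled knockout-Acsl4 1 was left out.

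Promoter sequence was at hand for 30 of the 34 genes, in RefSeq windows of 300 bases (GRCm38), with the start nearest the gene's end taken for each gene. For Slc7a11, Cybb, Aifm2, Prdx4 and Nox4 that start lay 2219 to 55474 bp from the gene's end, so their windows are not at the place where peaks were counted. Hmox1, Gclc, Gsr and Prdx6 had no entry. The 14 marked members had a median of 18 CpG dinucleotides per window (range 10 to 48), and the 16 unmarked ones a median of 11 (1 to 27). Over all genes with a window the medians were 24 for 4414 marked and 8 for 13078 unmarked genes. No member with 5 or fewer CpG was marked (0 of 7, among them Nqo1, Txnrd1 and Glrx), and 3.20% of all genes in that range were. These 7 include Slc7a11, Cybb and Aifm2, whose windows lie elsewhere, and Gpx4, which had peaks at another start. With 6 to 15 CpG, 4 of 6 members and 18.2% of all genes were marked, with 16 to 25 CpG 7 of 12 and 41.2%, and with 26 or more 3 of 5 and 48.1%, so the members' share did not rise steadily with CpG number. Gpx4 had 3 CpG in the window of its outermost start, and 31 in that of the internal start with the peak. The median GC content was 60.2% for marked and 59.7% for unmarked members.

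**Figure D4:**
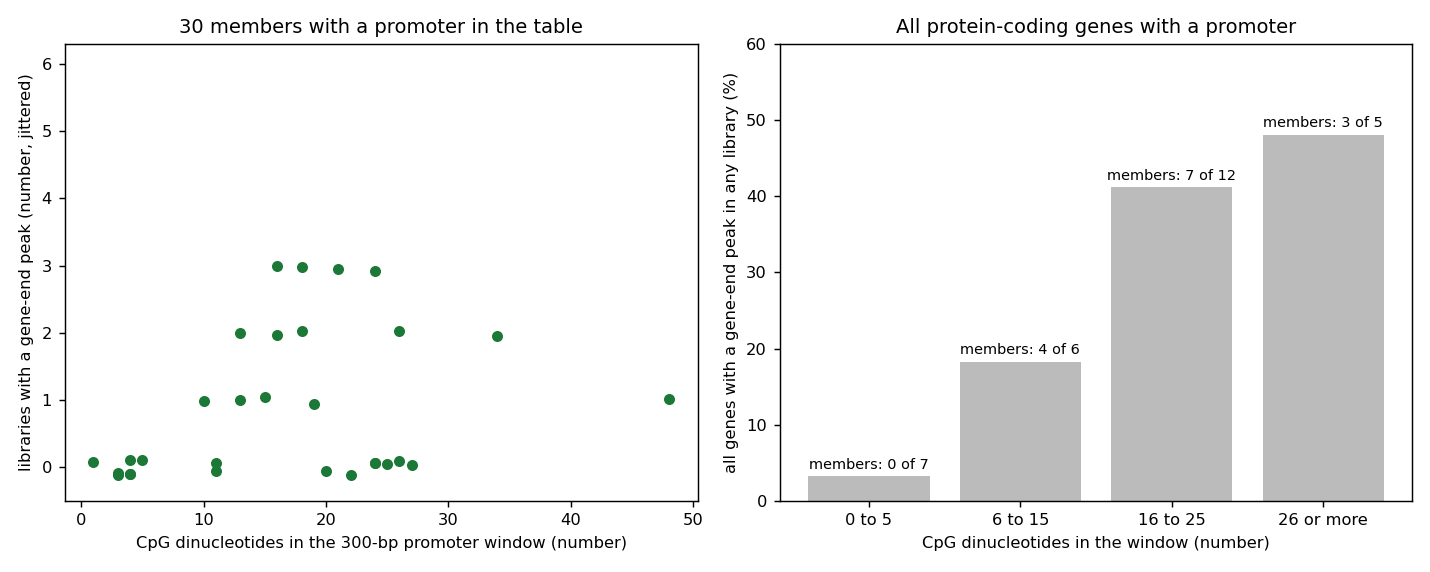
Left, number of libraries in which each of 30 members was marked against the number of CpG dinucleotides in its 300-bp promoter window, with points moved slightly in height so that they do not hide each other. Right, percentage of all protein-coding genes marked in any library by CpG number, with the count of members above each bar. None of the 7 members with 5 or fewer CpG was marked, and the share over all genes was 3.20% there and 48.1% with 26 or more. Those 7 include Slc7a11, Cybb and Aifm2, whose windows lie away from the gene end, and Gpx4, which had peaks at an internal start.

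The letters of 7 motifs were searched on both strands of these windows, and a match is a description only. The GC box GGGCGG was found in 21 of 30 members, 11 of 14 marked and 10 of 16 unmarked, and in 46.3% of all promoters. CCAAT was found in 14 of 30 members, against 39.2% of all promoters. In the promoters printed above, Glrx5 held CCAAT at 4 places, all of them inside the stretch covered in all 3 libraries, and Nfe2l1 at 4 places with 2 inside it. Sod2 held GGGCGG at 4 places, 1 of them inside the stretch, and CCAAT once, 12 bases before the start. The core of the antioxidant response element to which NRF2 binds, TGACNNNGC, was found in 5 of 30 members (Gclm, Nfe2l2, Prdx1, Sod1 and Srxn1), against 13.1% of all promoters, and 4 of those 5 were marked. Over all genes it was found in 16.3% of marked and 12.0% of unmarked promoters. The AP-1 motif TGACTCA was found in Prdx1, where it overlaps the response element core, in Srxn1 and in Glrx, against 4.56% of all promoters. The FOXO motif TGTTTAC was found in Glrx2, Slc7a11 and Txnip, against 2.93% of all promoters. The E-box CACGTG was found in Prdx4 alone, against 7.91%, and the CRE TGACGTCA in no member, against 2.33%.

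A further 61 genes of the same pathways, all matched, were read in the same way. Of these, 22 (36.1%) were marked in at least 1 library and 6 (9.84%) in at least 3, against 24.5% and 6.52% of all genes. Marked genes numbered 0 and 4 in the knockout-Acsl4 libraries, 8 and 20 in the knockout-GFP libraries and 12 and 0 in the control-GFP libraries. Those marked in the same 3 libraries as Glrx5 were Blvrb, a biliverdin reductase (mean percentile 89.3), Sesn3, a sestrin (80.2), Ggct, which acts in glutathione breakdown (67.8), Slc3a2, the partner chain of Slc7a11 (48.6), and Txndc9 (33.3). Bach1, a repressor that competes with NRF2, was marked in the libraries labelled knockout-Acsl4 2, knockout-GFP 2 and control-GFP 1 (38.6). By role, 4 of 9 NRF2 partners, 3 of 8 genes of NADPH supply, 6 of 14 further glutathione genes, 6 of 13 further thioredoxin family genes, 1 of 6 oxidase subunits and 2 of 11 others were marked in any library.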

How the data were processed

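ATAC-seq peak lists of 6 libraries were used, 1 per library and with no header. Per the submitters' processing notes the tools included MACS2 2.1.1 and BWA 0.7.10 besides Trimmomatic, SAMtools and FastQC, with no roles or settings. Sequencing was paired-end, 50 bp, after 12 PCR cycles, per the labels. The fifth column of each deposited list was taken for a −log10 q-value, because its smallest value lies just above 1.30, the −log10 of 0.05. The notes name human builds (hg38 and GRCh38), but the chromosomes and gene positions are those of mouse, and coordinates were taken as GRCm38 and are given 1-based. Read depth is unknown, and the number of peaks per list is given in its place.

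Genes and promoters came from RefSeq tables of GRCm38. A gene was marked by a peak overlapping 1000 bp on either side of a gene end by at least 1 bp. Strand came from the promoter table and was known for 17492 genes. The members and lists were chosen with earlier results of these data known. Members marked in at least 3 libraries, or by every library of 1 group and no library of another, are given in full; promoters printed and Gpx4's internal start were chosen after the values were seen. Groups were compared by two-sided exact permutation over libraries; patterns per gene had no test. Alternatives were overlap, peak threshold, list length, window, 5′ gene end only, any annotated start, autosomes, pairing and left-out libraries. The overlap code was tested on simulated data. Python 3.11.15, pandas 2.3.3, numpy 2.4.6, scipy 1.17.1 and matplotlib 3.10.9 were used.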

Additional observations from a re-analysis of the deposited data

How the results depend on the processing

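Over 168 recalculations of 12 results, no p-value was below 0.3333, which no setting could undercut. Of these recalculations, 149 kept their direction or stayed within 1.5 times the count. The 149 include 6 with paired and 6 with crossed library numbers, whose differences could not change. With the better 50% of each list, members marked in both knockout-GFP libraries and neither control-GFP library numbered 0, those set against knockout-Acsl4 in the same way 1, and the difference relative to all genes between knockout-Acsl4 and knockout-GFP was 0.171. With equal list lengths of 525 peaks the same 2 counts were 0 and 0, and the relative difference between knockout-Acsl4 and control-GFP was -0.772; with a window of 3000 bp it was -0.8996. With the libraries labelled control-GFP 2 and knockout-Acsl4 2 both left out, an alternative chosen after the data were seen, that difference was -1.59, and 2 and 9 members were marked in control-GFP only against knockout-GFP and knockout-Acsl4. The cause of these shifts was not tested. Directions were unchanged with an overlap of 50%, a window of 500 bp, the 5′ gene end only, any annotated start and autosomes only. Any annotated start was added after the data were seen. These settings changed no pattern count by more than 1.5 times. The size of the relative differences moved with the window of 500 bp, the 5′ gene end rule and the rule of any annotated start. In marked members, differences moved in size with shorter lists (-2 and -0.5 for knockout-Acsl4 minus control-GFP with the better 50% and with equal lengths).

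Leaving out each library in turn, the difference in marked members ranged from 0.5 to 9.5 for knockout-GFP minus control-GFP, from -12.5 to -5.5 for knockout-Acsl4 minus knockout-GFP and from -8.5 to 0.5 for knockout-Acsl4 minus control-GFP. The differences relative to all genes ranged from 0.594 to 2.18, from -2.18 to -0.315 and from -0.793 to 1.07. Members marked in knockout-GFP only ranged from 1 to 7 against control-GFP and from 5 to 12 against knockout-Acsl4, those in control-GFP only from 0 to 2 against knockout-GFP and from 0 to 9 against knockout-Acsl4, and those in knockout-Acsl4 only from 0 to 0 against knockout-GFP and from 0 to 1 against control-GFP.

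With the replicate block, libraries were paired by the number in their labels. Pairing cannot change a difference of means. The differences were therefore again 5, -9 and -4 members and 1.39, -1.25 and 0.14 relative to all genes. Only the p-value could differ (exact sign-flip p = 0.5 to 1, with 0.5 the smallest possible). The label of the library numbered knockout-Acsl4 2 also carries a name ending in 3, so its number is in doubt. Nothing in the labels says that a number marks a shared mouse or day, and the numbers were not taken as pairs. Deviations of same-numbered libraries over genes correlated at -0.284 between knockout-GFP and control-GFP. The correlation was -1.55e-05 between knockout-Acsl4 and knockout-GFP and 0.0593 between knockout-Acsl4 and control-GFP. Crossed pairs could give no sign-flip p below 0.5 either.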
